A study of Homo sapiens with 8 samples.

Results

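CS, IDH1, IDH2, IDH3A, OGDH, PC and ACLY encode enzymes of the tricarboxylic acid (TCA) cycle and of the steps that feed it or draw citrate from it, and they were selected by gene symbol, 7 of the 23193 genes with a counted gene body and transcription start site (TSS) region. The set carries the name of TCA cycle and glutamine enzymes, but none of the 7 acts on glutamine itself; glutamine genes were examined among the 46 further genes described last. Transcription was measured by PRO-seq, which labels the RNA of engaged RNA polymerase II (RNAPII) in a nuclear run-on, so that reads over the gene body count elongating polymerase and reads at the TSS count mostly paused polymerase. The cells were HCT116, a human colorectal carcinoma line, either wild-type (WT) or HIF1A-/-. HIF1A is the oxygen-regulated subunit of hypoxia-inducible factor 1, a transcription factor. Each genotype was kept in normoxia or placed at 1% O2 (hypoxia) for 90 min, with DMSO vehicle in all 4 groups, and each group had 2 libraries. The knockout line carries a disruption of HIF1A exons 3 and 4 made by adeno-associated virus-mediated recombination. The sources used here do not name a second HIF1A-/- clone, so a difference between genotypes cannot be told apart from a difference between these cell populations.

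In the TCA cycle, acetyl-CoA joins oxaloacetate to give citrate, and the carbon is then oxidised in steps that supply electrons to the respiratory chain. Cells refill the cycle through pyruvate carboxylation and glutamine, and they export citrate to the cytosol for lipid synthesis. The cycle's 2-oxoglutarate is also a co-substrate of the prolyl hydroxylases that mark HIF1A for degradation in oxygenated cells. HIF1A is known to lower the entry of pyruvate into the cycle through PDK1, a kinase that inhibits pyruvate dehydrogenase.

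Gene body libraries held 18125234 to 23622392 counted reads and TSS libraries 2783581 to 5966348. TSS reads were 11.2 to 20.2% of all counted reads, lowest in replicate 1 of HIF1A-/- normoxia (11.2%) and of HIF1A-/- hypoxia (12.9%). HIF1A gene body reads spanned 129 to 172 counts per 1000000 reads (CPM) over the 8 libraries; the HIF1A start site is intact in the knockout, so this level does not test the genotype. PDK1 gave 31.1 and 39.1 CPM in the WT normoxia libraries and 204 and 261 after hypoxia, while the knockout libraries gave 19.3 and 26.3 and then 26.9 and 30.5. PDK1 rose in WT cells (log2 fold change 2.70, SE 0.188, adjusted p = 0.00389). ENO1, the glycolytic enolase, missed the threshold (1.28, SE 0.224, adjusted p = 0.101) and passed it with the replicate number as a block (adjusted p = 0.0165). It also passed in other alternatives, though not in all of them. Of 8 colon epithelium markers all passed the filter, at a summed 588 to 766 CPM, although VIL1 was at or under 0.635 CPM in every library and KRT20 at 0.105 to 0.607 CPM in WT against 5.73 to 10.3 in HIF1A-/- cells. Of 7 markers of blood, endothelium and fibroblasts, 2 passed (CDH5 and COL1A1). In bulk samples such as these, fewer cells of a type and less RNA per cell cannot be told apart.

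Gene bodies were counted on hg19 from 1001 bases after the TSS to the gene end, with reads of opposite strands kept apart: of 431 gene bodies lying inside another on the same strand all had 0 reads, against 185 (21.1%) of 876 lying inside one on the opposite strand. CS, citrate synthase, makes the first bond of the cycle and was counted over chr12:56665482-56693174 on the minus strand. IDH3A, the catalytic subunit of the NAD-dependent isocitrate dehydrogenase, lay at chr15:78442719-78462884 on the plus strand. OGDH, the first enzyme of the 2-oxoglutarate dehydrogenase complex, was counted over chr7:44647121-44716195 on the plus strand, and 32.5 kb of the reference transcript lie beyond that end. IDH1, the NADP-dependent isocitrate dehydrogenase of the cytosol, lay at chr2:209100950-209118866, and its mitochondrial counterpart IDH2 at chr15:90627209-90644785, both on the minus strand. ACLY, ATP citrate lyase, splits exported citrate into acetyl-CoA and oxaloacetate and was counted over chr17:40023169-40074274 on the minus strand. PC, pyruvate carboxylase, makes oxaloacetate from pyruvate and has the longest body of the set, chr11:66615996-66724846 on the minus strand. The PC body holds 2 annotated internal starts of coding transcripts, and those of CS, IDH2 and IDH3A hold 1 each. LRFN4 lies inside the PC body on the opposite strand over 3829 bases.

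HIF1 binds DNA at a core of ACGTG or, with the first base exchanged, GCGTG. The 250 bases upstream of each counted TSS were read from the GRCh37 genome and searched on both strands for these cores and for the E-box motif CACGTG, whose matches are also matches to the first core. PC held ACGTG at 2 places, 191 and 170 bases upstream of the TSS. IDH1 held the second core, GCGTG, at 3 places, IDH3A at 2, and IDH2 and ACLY at 1 each. CS and OGDH held neither core, and the E-box motif was in none of the 7. Of all 23193 windows of this length, 19% held the first core, 35.9% the second and 6.64% the E-box motif. A match describes the letters of this window and does not identify a bound site. Shown are the windows of the 4 genes called between genotypes in hypoxia with the replicate number as a block (below). That fit called 28.2% of all gene bodies. The windows run 5′ to 3′ on the gene's strand, ending at the base before the TSS, with either core in capitals, read on either strand. They are PC at chr11:66725848-66726097 (minus), CS at chr12:56694176-56694425 (minus), IDH3A at chr15:78441468-78441717 (plus) and ACLY at chr17:40075276-40075525 (minus). The reference transcripts of PC and IDH3A start 7 and 14 bases upstream of the counted TSS, inside these windows.
PC: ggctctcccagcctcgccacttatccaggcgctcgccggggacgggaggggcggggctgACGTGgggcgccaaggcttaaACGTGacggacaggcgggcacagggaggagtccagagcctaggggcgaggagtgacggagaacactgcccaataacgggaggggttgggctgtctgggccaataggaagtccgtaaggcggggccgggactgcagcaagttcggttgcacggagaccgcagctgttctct
CS: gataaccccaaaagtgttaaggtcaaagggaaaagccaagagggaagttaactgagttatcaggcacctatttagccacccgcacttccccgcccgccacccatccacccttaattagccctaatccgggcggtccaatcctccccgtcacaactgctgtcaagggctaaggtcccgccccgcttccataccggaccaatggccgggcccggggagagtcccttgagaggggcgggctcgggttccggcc
IDH3A: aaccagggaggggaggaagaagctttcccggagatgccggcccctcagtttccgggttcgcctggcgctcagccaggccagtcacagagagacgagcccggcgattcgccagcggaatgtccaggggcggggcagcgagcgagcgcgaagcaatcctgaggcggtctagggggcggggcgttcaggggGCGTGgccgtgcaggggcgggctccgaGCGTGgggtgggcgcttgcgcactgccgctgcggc
ACLY: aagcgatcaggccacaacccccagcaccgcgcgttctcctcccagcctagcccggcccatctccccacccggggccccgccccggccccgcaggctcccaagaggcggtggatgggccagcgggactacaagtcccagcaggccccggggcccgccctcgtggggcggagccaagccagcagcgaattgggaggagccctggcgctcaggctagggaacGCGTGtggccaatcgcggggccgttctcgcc

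Per length, the 7 genes were moderately transcribed in WT normoxia. On the gene body RPKM scale (CPM per kilobase of counted body; mean ± SD, n = 2), ACLY was highest at 4.28 ± 0.604, above 85.7% of the 16686 gene bodies tested. CS followed at 3.36 ± 0.418, at the 80.2 percentile. IDH1 (2.11 ± 0.0379), OGDH (2.07 ± 0.0046), IDH2 (1.98 ± 0.0360) and IDH3A (1.70 ± 0.0033) lay between the 59.0 and 66.3 percentiles. PC was lowest at 1.16 ± 0.125, at the 47.0 percentile. The neighbours IDH1 and OGDH differed in mean by about the IDH1 SD; the lower ACLY library lay at 3.86, just above the higher CS library at 3.66. Over the 8 libraries OGDH varied least, 1.34-fold from lowest to highest, and PC most, 2.47-fold. All 7 members passed the filter on low counts in both regions, with 527 to 5577 gene body reads and 37 to 1252 TSS reads per library.

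**Figure D1:**
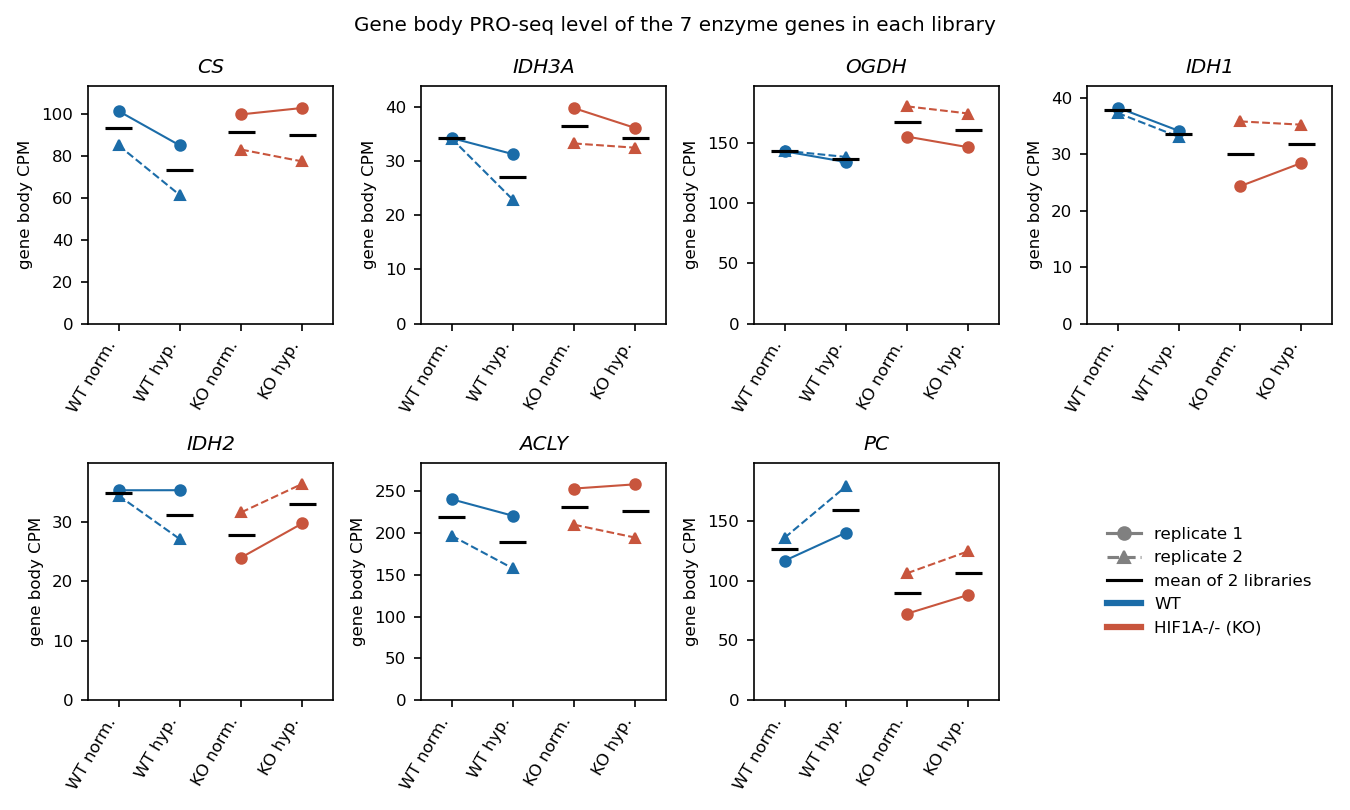
Gene body CPM (y axis, from 0) of the 7 genes in the 4 groups (x axis; norm. is normoxia, hyp. hypoxia, KO HIF1A-/-). Each point is 1 library, lines join the normoxia and hypoxia libraries with the same replicate number, and black bars are means of 2 libraries; both PC lines slope up in each genotype, from 117 and 136 to 140 and 179 CPM in WT.

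Hypoxia in WT cells was the first comparison. Of the 7 gene bodies, 6 had a log2 fold change below 0 and PC had one above 0, but none passed a false discovery rate (FDR) of 10% in edgeR, where 0.431% of all gene bodies tested were called (0 of 7 members also at an unadjusted p under 0.05, and 0 by DESeq2, which called no member in any of the 13 comparisons). The members' median log2 fold change was -0.20, against -0.02 over all gene bodies, of which 52.5% were below 0. With the replicate number as a block, CS alone was called, where 5.51% of all gene bodies were.

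CS gave 101 and 84.9 gene body CPM in WT normoxia (replicates 1 and 2) and 84.9 and 61.2 in WT hypoxia, so the hypoxia libraries lay just below the normoxia ones. Its log2 fold change was -0.38 (SE 0.243, 95% confidence interval -0.94 to 0.18, adjusted p = 0.897), and with the replicate block CS fell by 0.39 (SE 0.0929, adjusted p = 0.0762; 0.0762 to 1 over 12 alternatives, with 1 call). The blocked fit took out a single shift between replicates 1 and 2 that all 4 groups shared. The log2 ratios of the WT hypoxia to the WT normoxia library of the same number were -0.25 and -0.47. IDH3A gave 34.3 and 34.2 CPM in WT normoxia and 31.3 and 22.9 in WT hypoxia, lower in both, with most of the difference in replicate 2. Its log2 fold change was -0.37 (SE 0.211, interval -0.85 to 0.12, adjusted p = 0.897; 0.150 with the block). OGDH, the least variable member, gave 143 and 143 CPM in WT normoxia and 134 and 138 in WT hypoxia. Its log2 fold change of -0.10 (SE 0.116) had the narrowest interval of the set, -0.37 to 0.17.

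Of the NADP-dependent enzymes, IDH1 gave 38.3 and 37.4 CPM in WT normoxia and 34.2 and 33.1 in WT hypoxia, with no overlap (log2 fold change -0.20, SE 0.180). IDH2 gave 35.3 and 34.4 against 35.3 and 27.1, and its groups overlapped (-0.19, SE 0.189). The IDH2 difference came from replicate 2, with pair ratios of 0.0004 and -0.35 on the log2 scale. ACLY gave 241 and 197 CPM in WT normoxia and 221 and 158 in WT hypoxia, with overlapping groups (-0.24, SE 0.245), and its adjusted p was 0.158 with the block.

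PC, the anaplerotic enzyme, went the other way. It gave 117 and 136 CPM in WT normoxia and 140 and 179 in WT hypoxia, higher in both hypoxia libraries than in either normoxia library. The log2 fold change was 0.31 (SE 0.205, interval -0.17 to 0.78, adjusted p = 0.897; 0.133 with the block), so the difference was not called. The summed level of the 7 markers of other cell types also ran higher in WT hypoxia (39.7 to 52.9 CPM) than in WT normoxia (28.5 to 33.7). Nearly all of it came from the collagen gene COL1A1, which the paper lists among its acute hypoxia response genes in HCT116. The rise of COL1A1 therefore cannot be read as a sign of other cells. PTPRC, CD3E, PECAM1, COL1A2 and DCN stayed at or below 0.444 CPM in all libraries. Any relation of these markers to the PC values was not tested. Over the set, 5 of 7 members had hypoxia and normoxia CPM values that did not overlap in WT cells (4 lower and 1 higher), where 37.1% of all gene bodies did not overlap. For CS this rested on 84.87 CPM in hypoxia against 84.91 in normoxia. These CPM use library totals without the normalization factors of the fits.

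In HIF1A-/- cells the same exposure gave estimates nearer to 0 for 5 members, and the test of that difference follows. None of the 7 gene bodies was called (0% of all gene bodies were, with 347 of 16686 at an unadjusted p under 0.05 and none of them a member, and 8 called by DESeq2), and in 0 of 7 did the groups fail to overlap, where 23.5% of all gene bodies did. With the block 0.036% of all gene bodies were called and again no member. CS gave 99.7 and 82.9 CPM without hypoxia and 103 and 77.2 with it, 1 pair up and 1 down (log2 fold change -0.06, interval -0.62 to 0.50). IDH3A gave 39.8 and 33.3 against 36.1 and 32.5 CPM (-0.13, interval -0.62 to 0.35). ACLY gave 254 and 210 against 259 and 195 CPM (-0.07, interval -0.64 to 0.49). The estimates of these 3 genes were near 0, with intervals as wide as in WT cells. IDH1 gave 24.4 and 35.9 against 28.5 and 35.3 CPM, 1 pair up and 1 nearly level (0.05, interval -0.37 to 0.46). OGDH gave 155 and 180 against 146 and 174 CPM, slightly lower in both pairs (-0.11, interval -0.37 to 0.16). IDH2 gave 23.96 and 31.5 CPM in HIF1A-/- normoxia and 29.7 and 36.4 in hypoxia, higher in both pairs (0.21, interval -0.22 to 0.65). PC gave 72.5 and 106 against 88.3 and 125 CPM, again higher in both pairs (0.21, interval -0.26 to 0.69), at pair ratios of 0.28 and 0.23 on the log2 scale beside 0.26 and 0.40 in WT cells. All 4 pair ratios of PC were above 0.

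The test of whether the response differed between genotypes (WT response minus HIF1A-/- response) called no member, where 0.0539% of all gene bodies were called (0.384% with the block) and no member had an unadjusted p under 0.05. The estimate was -0.32 for CS (interval -1.11 to 0.47), -0.40 for IDH2 (-1.02 to 0.21) and 0.09 for PC (-0.58 to 0.76), all at an adjusted p of 1.00. It was -0.25 for IDH1 (-0.84 to 0.34), -0.23 for IDH3A (-0.92 to 0.45), -0.17 for ACLY (-0.97 to 0.63) and 0.0027 for OGDH (-0.38 to 0.38), so every member's interval held 0. With the block CS had an unadjusted p of 0.0367 and an adjusted p of 0.897. With 2 libraries per group the CS interval holds both no difference between the responses and a WT response lower by 1 log2 unit. PDK1 passed the same test (2.40, adjusted p = 0.0616).

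Between genotypes the largest separation was at PC. In normoxia PC gave 117 and 136 CPM in WT cells and 72.5 and 106 in HIF1A-/- cells, with every knockout library below every WT library. In hypoxia the values were 140 and 179 in WT and 88.3 and 125 in HIF1A-/- cells, again without overlap. The log2 fold change (HIF1A-/- against WT) was -0.51 in normoxia (SE 0.206, interval -0.99 to -0.03, unadjusted p = 0.0389, adjusted p = 0.50) and -0.60 in hypoxia (SE 0.206, interval -1.08 to -0.13, unadjusted p = 0.0196, adjusted p = 0.214). With the replicate block PC was called lower in both, by -0.52 (adjusted p = 0.0134) and -0.61 (adjusted p = 0.00397). Over 12 alternatives its adjusted p ran from 0.0134 to 1 in normoxia and from 0.00397 to 0.825 in hypoxia, and the blocked fit was the 1 that called it in each. COL1A1 gave 27.8 and 31.5 CPM in WT normoxia and 19.0 and 35.9 in HIF1A-/- normoxia. In hypoxia it gave 38.3 and 50.3 in WT and 24.5 and 43.9 in HIF1A-/- cells. These values overlapped between genotypes in both oxygen states, but in hypoxia the knockout was lower in both replicate pairs. Like PC, COL1A1 was higher in replicate 2 of each group. A relation between the COL1A1 and PC values was not tested.

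The other members separated less. IDH1 gave 24.4 and 35.9 CPM in HIF1A-/- normoxia, below both WT libraries, but replicate 1 accounted for nearly all of the difference (log2 fold change -0.34, adjusted p = 0.697, pair ratios -0.65 and -0.06). IDH2 showed the same shape (-0.34, adjusted p = 0.738, pair ratios -0.56 and -0.12). Both low values came from the HIF1A-/- normoxia library with the lowest TSS share. OGDH was higher in the knockout without overlap in both oxygen states, at 155 and 180 CPM in normoxia and 146 and 174 in hypoxia (0.22 in each, adjusted p = 0.684 and 0.409). CS (-0.02, interval -0.59 to 0.54), IDH3A (0.10, interval -0.39 to 0.58) and ACLY (0.09, interval -0.48 to 0.65) overlapped between genotypes in normoxia. There 0 of 7 members were called without the block, where 1.78% of all gene bodies were, and 1 (PC) with it, where 10.3% were. The groups of 4 of 7 members did not overlap there, against 33.1% of all gene bodies.

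In hypoxia 0 of 7 members were called without the block, where 4.26% of all gene bodies were, and 4 with it, where 28.2% were. The groups of 3 of 7 did not overlap, where 46.2% of all gene bodies did not. Beside PC, the block called CS, IDH3A and ACLY higher in HIF1A-/- cells. CS had a log2 fold change of 0.29 with the block (SE 0.0928, adjusted p = 0.0593; 0.608 without it), and its pair ratios were 0.28 and 0.34. IDH3A had 0.34 (adjusted p = 0.0962; 0.499 without the block). ACLY had 0.25 (adjusted p = 0.0749; 0.666 without the block), at 221 and 158 CPM in WT hypoxia and 259 and 195 in HIF1A-/- hypoxia. IDH1 (-0.09, interval -0.51 to 0.32) and IDH2 (0.07, interval -0.37 to 0.50) overlapped between genotypes in hypoxia and were called in neither fit. The WT hypoxia libraries are the ones in which these 3 genes also ran low against WT normoxia, and both comparisons use them.

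**Figure D2:**
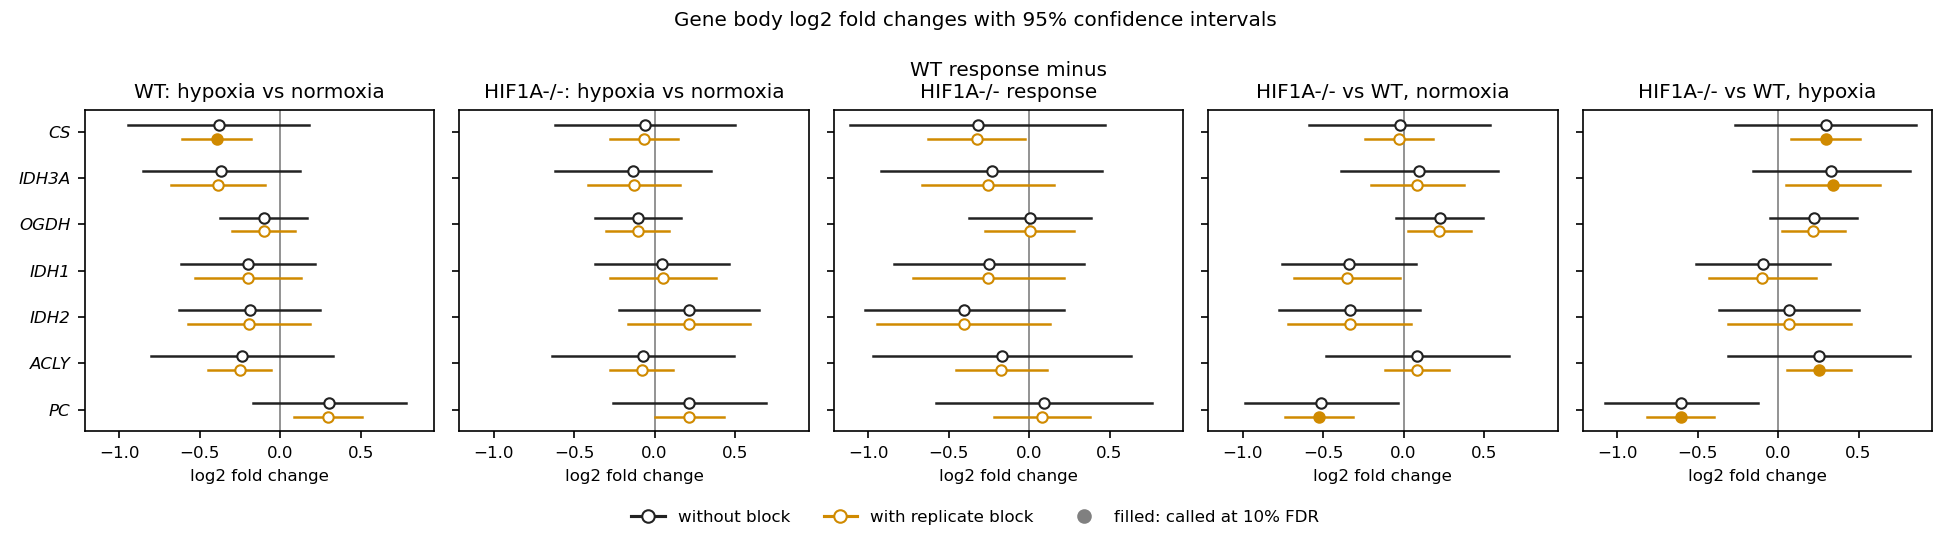
Gene body log2 fold changes (x axis) of the 7 genes in the 5 comparisons, with 95% confidence intervals from edgeR without (black) and with (orange) the replicate block; filled points passed an FDR of 10%. The estimates hardly move between the fits while the intervals narrow, and the filled points are CS in WT hypoxia, PC in both genotype comparisons, and CS, IDH3A and ACLY in hypoxia.

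The block mattered because replicate 2 differed from replicate 1 in the same way in group after group. For CS the log2 ratio of replicate 2 to replicate 1 was -0.25 and -0.47 in the WT groups (normoxia, then hypoxia) and -0.27 and -0.41 in the knockout groups. ACLY followed it with -0.29, -0.49, -0.27 and -0.41, and IDH3A was below 0 in all 4 groups (-0.45 to -0.0040). PC was above 0 in all 4 (0.22 to 0.55), and so was OGDH (0.0045 to 0.25). For CS and ACLY the replicates were thus about as far apart as WT normoxia and WT hypoxia. IDH1 and IDH2 had no such common shift, with ratios below 0 in the WT groups (-0.38 to -0.04) and of 0.29 to 0.56 in the knockout groups.

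**Figure D3:**
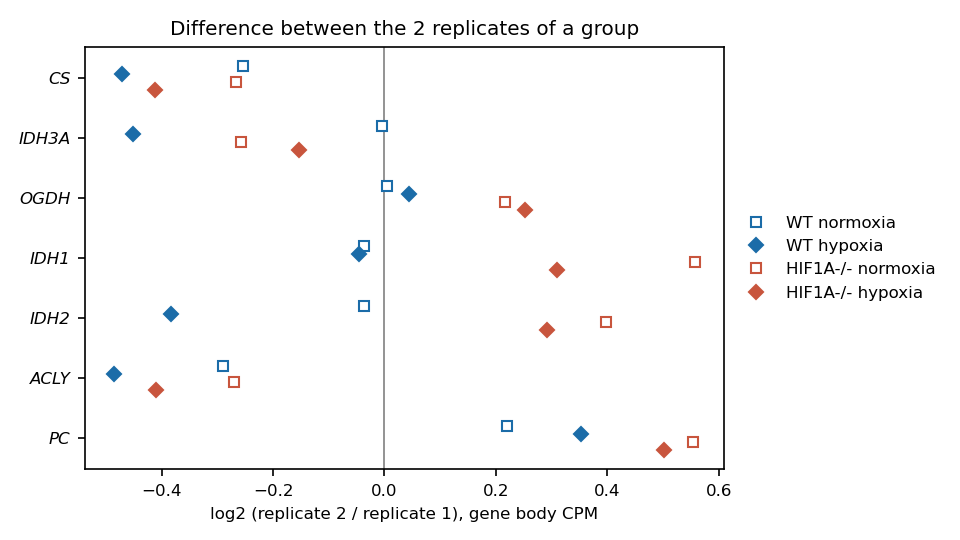
Log2 ratio of replicate 2 to replicate 1 in gene body CPM (x axis) for the 7 genes, 1 point per group. CS, IDH3A and ACLY lie left of 0 in all 4 groups. PC (0.22 to 0.55) and OGDH (0.0045 to 0.25) lie right of 0 in all 4.

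The same structure stood in the correlations of log2 CPM over the 8 libraries, which share these replicate pairs. CS and ACLY had r = 0.98, CS and IDH3A 0.92, IDH3A and ACLY 0.90, and IDH1 and IDH2 0.79. PC ran against IDH3A (-0.86), ACLY (-0.80) and CS (-0.76). Among all gene bodies tested, the 3 most like CS over the 8 libraries were GPAT4, DDX49 and LRRC47 (r = 0.99 to 1.00). Those most like ACLY were SNRPD3, RPL29 and DHX37 (0.99), and those most like IDH3A were LAMTOR4, MGRN1 and CCNL2 (0.99). PLA2R1, SYCP2L and LOC100130476 were most like PC (0.99), TRPC7-AS2, ZC3HAV1 and COMMD1 most like OGDH (0.96 to 0.97), ZNF792, ANKRD20A1 and CDC42EP4 most like IDH1 (0.96 to 0.97), and P2RY2, LOC729732 and VSIG10 most like IDH2 (0.93 to 0.94).

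TSS regions (50 bases before to 500 bases after the start) told how much polymerase sat near the promoter. In WT hypoxia all 7 members had a TSS log2 fold change below 0 (median -0.16, against -0.02 over all 15212 TSS regions tested), but none was called (0.046% of all were, 1.01% with the block) and none had an unadjusted p under 0.05. Scaling TSS reads by the gene body totals in place of the TSS totals moved the median of all TSS regions to 0.17 and put 5 of the 7 above 0, all but CS and PC. In HIF1A-/- cells no member was called in hypoxia against normoxia (0% of all TSS regions were, with 135 at an unadjusted p under 0.05 and 0 called by DESeq2; 0.00657% with the block), and the difference in response called none (0.00657%, and 0.046% with the block).

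IDH2 had the clearest TSS difference between genotypes in normoxia. Its TSS region gave 128 and 132 CPM in WT normoxia and 77.2 and 103 in HIF1A-/- normoxia, with all knockout libraries lower. The log2 fold change was -0.51 (SE 0.168, unadjusted p = 0.00970, adjusted p = 0.412), and with the block IDH2 was called lower (-0.52, adjusted p = 0.0537). Without replicate 2 of HIF1A-/- normoxia the estimate was -0.73, with that group resting on 1 library, the one with the low TSS share. In normoxia 0.657% of all TSS regions were called (4.29% with the block). In WT hypoxia IDH2 gave 116 and 117 TSS CPM and in HIF1A-/- hypoxia 97.3 and 101 (-0.24, adjusted p = 0.549).

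CS differed at the TSS in hypoxia, where 1.1% of all TSS regions were called (14.4% with the block). It gave 219 and 181 CPM in WT hypoxia and 327 and 236 in HIF1A-/- hypoxia, all knockout libraries higher (0.48, SE 0.227, adjusted p = 0.382). CS was called higher with the block (0.46, adjusted p = 0.0249). It was also called without the filter on low counts, where 1063 of 17678 TSS regions were. On the gene body scaling, however, its estimate turned to -0.0451. On that scaling the median of all TSS regions in the comparison was -0.49, so CS still lay above it. IDH1, IDH3A, OGDH and ACLY TSS regions were called in no fit of any comparison.

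PC had the least TSS signal of the set, and its TSS and gene body estimates for hypoxia had opposite signs in each genotype. In WT cells the PC TSS region gave 23.9 and 19.4 CPM in normoxia and 17.7 and 13.9 in hypoxia. The knockout libraries gave 14.4 and 15.4 CPM, then 12.3 and 12.9. Both hypoxia libraries were below both normoxia libraries in each genotype, and both knockout groups were below their WT groups. None of these differences was called (WT hypoxia -0.43, SE 0.290, adjusted p = 0.922; HIF1A-/- against WT in normoxia -0.52, SE 0.298, adjusted p = 0.680), and the counts behind them are small.

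The pausing index is the TSS read density divided by the gene body density, each density a CPM of its own table per base. CS, IDH2 and ACLY had high values and PC a low one, beside a median of 44.4 to 49.1 per library over 14494 genes. The ACLY index ran from 92.4 to 128 and that of IDH2 from 89.0 to 138 over the 8 libraries. For CS the WT values were 140 and 129 in normoxia, then 129 and 149 in hypoxia, and the knockout values 193 and 147, then 160 and 153. For PC the WT index values were 40.4 and 28.2 without hypoxia and 24.9 and 15.3 with it, and the knockout values 39.2 and 28.6, then 27.5 and 20.3. In each genotype the hypoxia values of PC lay below both normoxia values. The share of PC gene body reads from its 2 annotated internal starts was not tested. As a ratio of raw counts per base the PC index spanned 3.87 to 8.65 and that of CS 23.7 to 37.5.

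The log2 change of the PC pausing index in WT hypoxia was -0.78 (SE 0.281, interval -1.38 to -0.18, unadjusted p = 0.0149, adjusted p = 0.857), and with the block it was -0.76 (unadjusted p = 0.00150, adjusted p = 0.157). Neither was called, where 0.193% and 0.545% of the genes were. In HIF1A-/- cells the change was -0.48 (SE 0.315, interval -1.15 to 0.20, adjusted p = 1.00), where 0% of genes were called in either fit, with 240 genes and no member at an unadjusted p under 0.05 without the block and 0 called by DESeq2. On raw counts the 2 WT pairs gave -0.48 and -0.61 and the 2 HIF1A-/- pairs -0.28 and -0.43 on the log2 scale. The other 6 members had changes of -0.10 to 0.19 in WT hypoxia. Between genotypes in normoxia no member's index was called (0.0966% of genes were, 0.731% with the block). The estimate nearest to a call was CS at 0.34 (SE 0.204, adjusted p = 0.803). On raw counts per base the CS index did not keep this difference. It was 30.0 and 27.1 in WT normoxia and 24.4 and 29.8 in HIF1A-/- normoxia, with overlap.

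**Figure D4:**
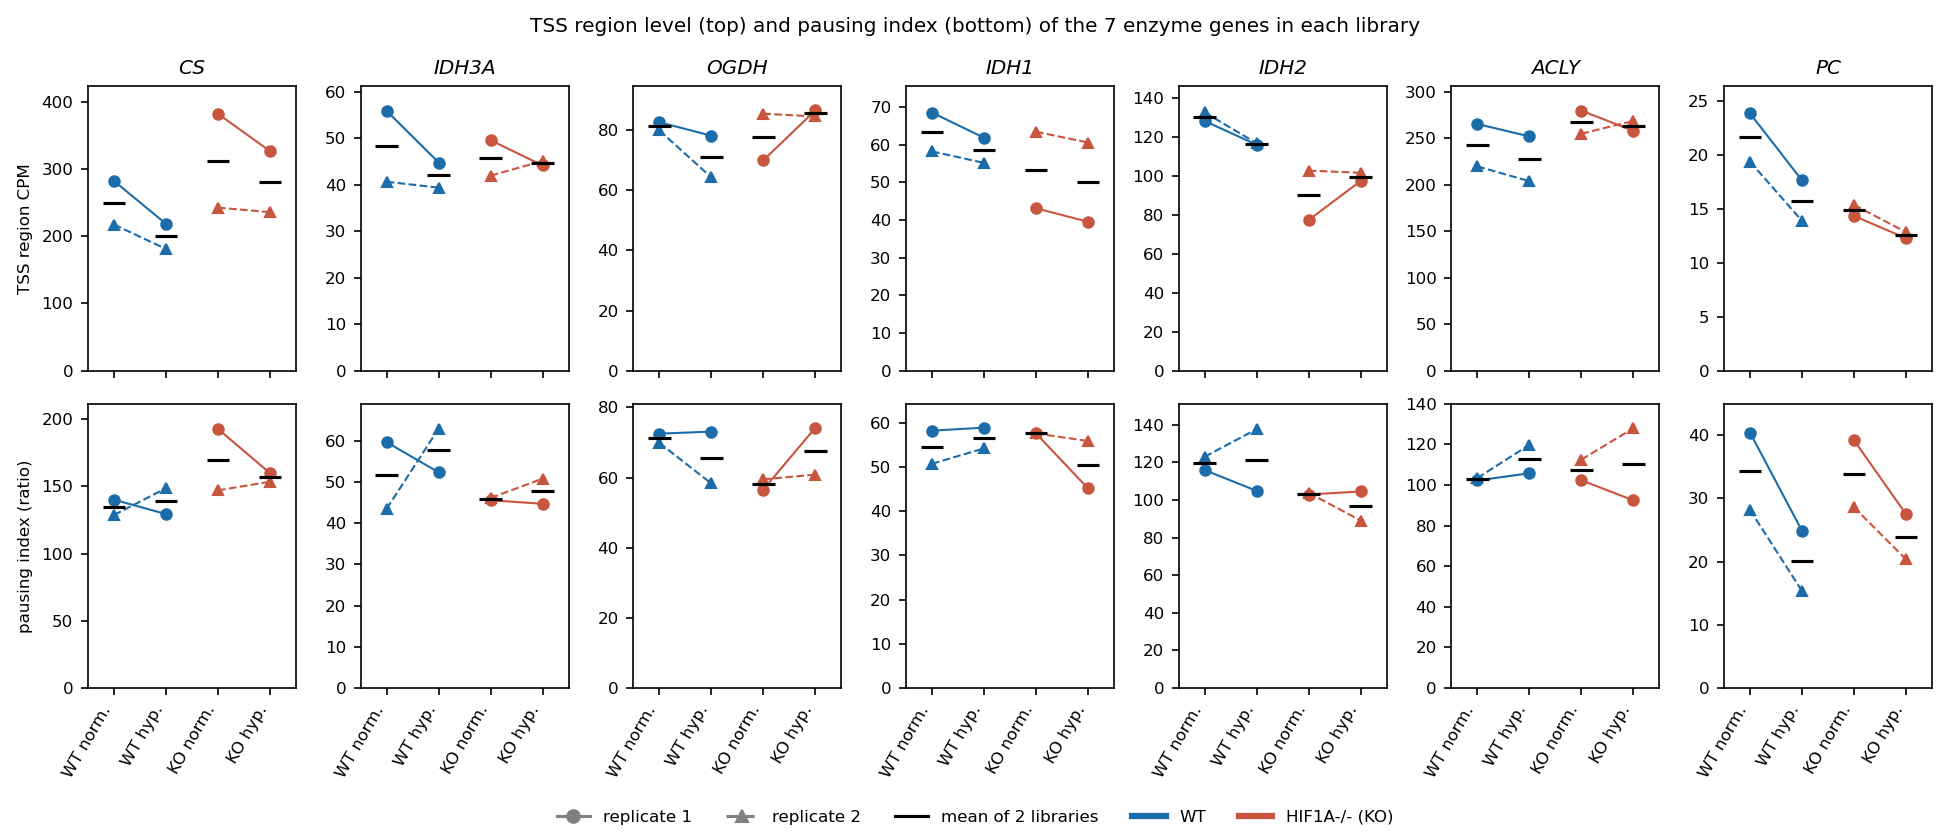
TSS region CPM (top row) and pausing index, a ratio without unit (bottom row), of the 7 genes in the 4 groups, with 1 point per library, lines joining equal replicate numbers and black bars for means of 2. PC is lower in hypoxia than in normoxia along all 4 lines in both rows, with an index of 40.4 and 28.2 in WT normoxia and 24.9 and 15.3 in WT hypoxia.

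The surrounding pathways were read from 46 further genes, of which 43 gene bodies passed the filter (GLS2, GLUD2 and PCK1 did not). In WT hypoxia none was called by edgeR without the block or by DESeq2, and none had an unadjusted p under 0.05; 10 were above 0 and 33 below, with a median of -0.11 beside -0.02 for all gene bodies. The 16 further genes of the cycle itself had 3 above and 13 below 0 (median -0.14). MDH2, mitochondrial malate dehydrogenase, gave 116 and 106 CPM in WT normoxia and 97.6 and 77.0 in WT hypoxia. It was the 1 of 43 called with the block (-0.39, adjusted p = 0.0932), where 5.51% of all gene bodies were called. In HIF1A-/- cells 12 were above and 31 below 0 (median -0.08), and neither that comparison nor the difference in response called any of the 43 in either fit. ME1, a cytosolic malic enzyme, was the gene at an unadjusted p under 0.05 in HIF1A-/- hypoxia (log2 fold change -0.55, adjusted p = 1.00); it was named after its value was seen.

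Between genotypes 1 of 43 was called in normoxia without the block and 3 with it, beside 1.78% and 10.3% of all gene bodies, and 1 and 8 in hypoxia, beside 4.26% and 28.2%. The called pathway genes were lower in HIF1A-/- cells. Over all gene bodies the calls with the block were 656 higher and 1066 lower in normoxia and 2186 higher and 2520 lower in hypoxia. MPC1, a subunit of the mitochondrial pyruvate carrier, gave 17.0 and 18.3 CPM in WT normoxia and 10.1 and 9.98 in HIF1A-/- normoxia, and it was the gene called in normoxia (-0.81, adjusted p = 0.0990; 0.0134 with the block). In hypoxia MPC1 gave 16.4 and 15.6 against 9.49 and 10.4 CPM and was called with the block (-0.69, adjusted p = 0.0142). GPT2, the mitochondrial alanine transaminase that turns glutamate and pyruvate into 2-oxoglutarate and alanine, gave 85.7 and 66.6 CPM in WT hypoxia and 39.8 and 50.6 in HIF1A-/- hypoxia, and it was the gene called there (-0.77, adjusted p = 0.0980; 0.0157 with the block). Neither call remained in any fit that left out 1 library.

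With the block, normoxia also gave DLAT, a subunit of pyruvate dehydrogenase (-0.34, adjusted p = 0.0460), and ME3, a mitochondrial malic enzyme (-1.08, adjusted p = 0.0570). In hypoxia 8 of 43 were called, all lower: MPC1, GPT2, DLAT (-0.31), ME3 (-1.36), MDH1 (-0.42), SUCLG1 (-0.46), FH (-0.31) and SLC38A2 (-0.43). MDH1 is the cytosolic malate dehydrogenase, SUCLG1 a subunit of succinyl-CoA synthetase, FH fumarase and SLC38A2 a glutamine transporter. ME3 is a low gene, at 3.14 and 7.50 CPM in WT normoxia and 1.36 and 3.74 in HIF1A-/- normoxia, where replicate 2 of the knockout exceeded replicate 1 of WT.

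**Figure D5:**
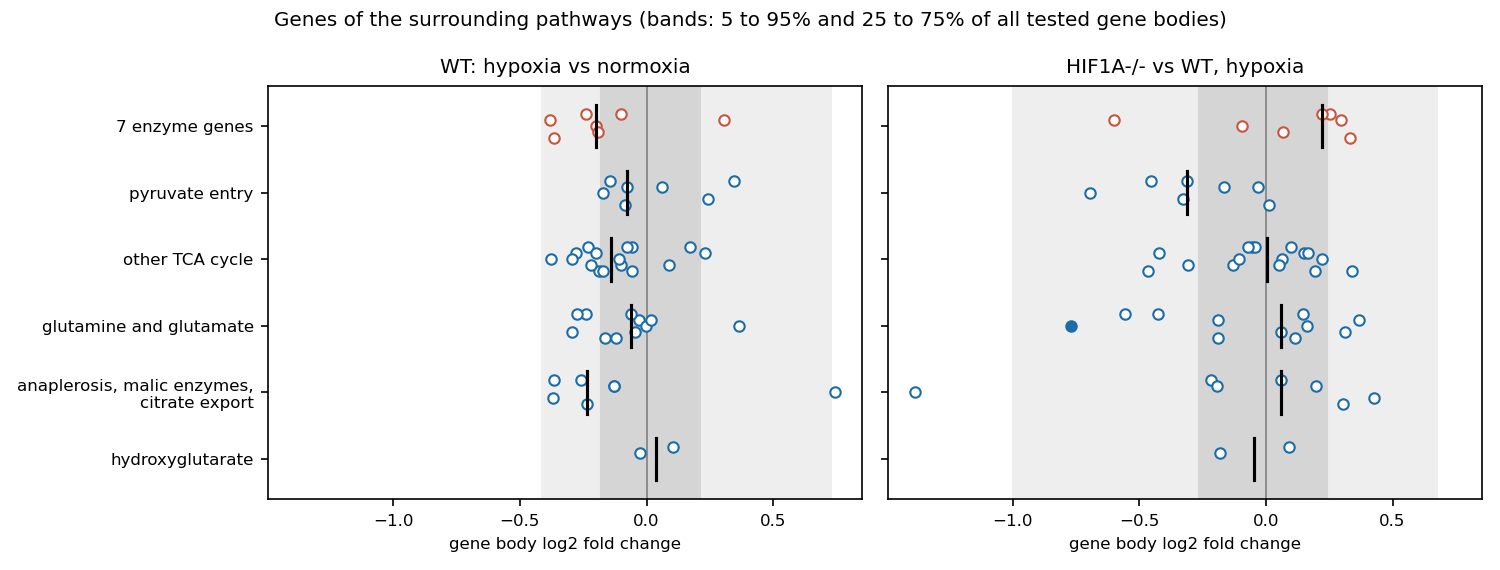
Gene body log2 fold changes (x axis) without the block for WT hypoxia (left) and for HIF1A-/- against WT in hypoxia (right), 1 point per gene by list, with black bars for list medians; gray bands hold the middle 50% and 90% of all 16686 gene bodies. In WT hypoxia no point is filled (FDR 10%), and in the right panel the filled point is GPT2 at -0.77.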

How the data were processed

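PRO-seq counts in 8 libraries were used as the authors deposited them: whole-number read counts per gene body (from 1001 bases after the TSS) and per TSS region (50 bases before to 500 after). Per the labels and the study's methods, reads were aligned to GRCh37/hg19 with HISAT2 2.1.0, filtered with SAMtools 1.5 and counted with featureCounts (Subread 1.6.2) on 1 chosen TSS per gene. The strand setting is not given in the sources used here and was checked on the counts. The counts carry no normalization, and no molecular identifiers are described, so repeated reads of the same molecule cannot be told apart. The SEs and intervals of the fits include the spread between libraries as well as counting error.

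Groups were taken from the labels. Genes above 0.5 CPM in at least 2 libraries were tested with edgeR 4.0.16 (R 4.3.3; TMM, quasi-likelihood F test, 1 fit of 4 group means, Benjamini-Hochberg over all genes tested, FDR 10%), separately for 16686 gene bodies and 15212 TSS regions. Pausing was tested over 14494 genes in a fit of both regions with a term per library. Alternatives were library totals, DESeq2 1.42.0, no filter, FDR 5%, a replicate block, each library left out, TSS reads scaled by gene body totals, and raw pausing ratios. The replicates were independent biological duplicates. Libraries with the same replicate number deviated together from their group means in all 6 pairs of groups (r = 0.48 to 0.79 for gene bodies, 0.22 to 0.52 for TSS regions), so the numbers were taken to pair the libraries; the labels do not say what they share.

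The members, the 46 pathway genes (textbook lists), the markers and the tests were chosen with earlier results of these data known. All 7 members were named in each gene body comparison, with PDK1 and ENO1 as reference genes, pathway genes called in the gene body in either fit, and the 3 gene bodies most correlated with each member. Of the markers chosen for other cell types, 1 was left out of the counts and sums and is not reported here. The gene body and pausing fits without the block were tested on simulated data with known changes. Those data had no replicate shift and less spread between libraries than the real ones, so they do not test the blocked fit.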

Additional observations from a re-analysis of the deposited data

How the results depend on the processing

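In edgeR without the replicate block no member was called in any of the 13 comparisons. In gene bodies the block called 1 member in WT hypoxia, where 5.51% of all gene bodies were called. Between genotypes it called 1 gene body member in normoxia and 4 in hypoxia, beside 10.3% and 28.2% of all gene bodies. In TSS regions it called 1 member between genotypes in each oxygen state, beside 4.29% of all TSS regions in normoxia and 14.4% in hypoxia. Without a filter, CS was called in the TSS comparison of genotypes in hypoxia, where 1063 of 17678 TSS regions were. Leaving out 1 library added IDH2 in the TSS comparison of genotypes in normoxia. The block changed no other member call. Among pathway genes the block called 1 in WT hypoxia, 3 between genotypes in normoxia and 8 in hypoxia; the single call in normoxia became 0 with library totals, without a filter, at FDR 5% and in every fit that left out 1 library (0 to 0), and the single call in hypoxia became 0 with library totals, at FDR 5% and in every fit that left out 1 library (0 to 0) and 2 with DESeq2. Over all gene bodies the block raised the calls from 72 to 919 in WT hypoxia and from 297 to 1722 and 711 to 4706 between genotypes, and DESeq2 called 175, 630 and 1311. Direction turned in 17 of 399 values of the 91 member fold changes. Scaling TSS reads by gene body totals turned the WT hypoxia values of IDH1 (0.094), IDH2 (0.050), IDH3A (0.0093), OGDH (0.022) and ACLY (0.12), the HIF1A-/- hypoxia values of IDH3A (0.079) and ACLY (0.084), the ACLY difference in response (0.037), and, between genotypes, CS (-0.13) and ACLY (-0.26) in normoxia and CS (-0.045), IDH3A (-0.42), OGDH (-0.24) and ACLY (-0.29) in hypoxia; that scaling moves all TSS regions by the TSS share of each library. Library totals turned the differences in response of the OGDH gene body (-0.0072) and the IDH1 TSS (-0.027), and the block turned the genotype difference of the PC pausing index in normoxia (0.0053). Leaving out 1 library turned 45 member values, none of them called without the block; 1 of them, the ACLY gene body between genotypes in hypoxia, was called with it. The cause was not tested. For gene bodies, WT hypoxia vs normoxia, the ranges were IDH2 -0.40 to 0.0067, ACLY -0.51 to 0.00. For gene bodies, HIF1A-/- hypoxia vs normoxia, the ranges were CS -0.31 to 0.17, IDH1 -0.17 to 0.31, IDH3A -0.29 to 0.05, PC -0.0095 to 0.47, ACLY -0.32 to 0.16, ENO1 -0.19 to 0.29. For gene bodies, the difference in response, the ranges were OGDH -0.076 to 0.11, PC -0.16 to 0.33, ACLY -0.44 to 0.10. For gene bodies, HIF1A-/- vs WT in normoxia, the ranges were CS -0.19 to 0.16, IDH3A -0.061 to 0.28, ACLY -0.082 to 0.27. For gene bodies, HIF1A-/- vs WT in hypoxia, the ranges were IDH1 -0.22 to 0.02, IDH2 -0.13 to 0.31, ACLY -0.0092 to 0.55. For TSS regions, WT hypoxia vs normoxia, the ranges were IDH1 -0.19 to 0.034, IDH3A -0.37 to 0.077, ACLY -0.20 to 0.079. For TSS regions, HIF1A-/- hypoxia vs normoxia, the ranges were CS -0.46 to 0.21, IDH1 -0.45 to 0.21, IDH2 -0.043 to 0.35, IDH3A -0.16 to 0.092, ACLY -0.10 to 0.05. For TSS regions, the difference in response, the ranges were CS -0.51 to 0.16, IDH1 -0.30 to 0.35, IDH3A -0.34 to 0.11, ACLY -0.18 to 0.11. For TSS regions, HIF1A-/- vs WT in normoxia, the ranges were CS -0.036 to 0.64, IDH1 -0.53 to 0.0074, IDH3A -0.27 to 0.17, OGDH -0.19 to 0.08. For TSS regions, HIF1A-/- vs WT in hypoxia, the ranges were IDH1 -0.59 to 0.033, IDH3A -0.018 to 0.15. For the pausing index, WT hypoxia vs normoxia, the ranges were CS -0.041 to 0.17, IDH2 -0.17 to 0.23, IDH3A -0.0081 to 0.41, OGDH -0.27 to 0.051. For the pausing index, HIF1A-/- hypoxia vs normoxia, the ranges were CS -0.27 to 0.10, IDH2 -0.18 to 0.012, IDH3A -0.041 to 0.18, ACLY -0.22 to 0.29. For the pausing index, HIF1A-/- vs WT in normoxia, the ranges were IDH3A -0.35 to 0.064, PC -0.27 to 0.21, ACLY -0.0057 to 0.15. The limits are 2 libraries per group, PC TSS counts of 37 to 106 reads, replicate shifts as large as the differences, and 1 knockout line.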
